A study of Danio rerio with 4 samples.

Results

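Zebrafish carry silvery iridophores, yellow xanthophores and black melanophores, and the values below describe 10 genes that mark or build the first and the second of these in whole embryos after exposure to SYP-3343, a compound known here only under this code. The genes were *pnp4a*, *ltk*, *gart*, *paics*, *atic*, *gch2*, *xdh*, *pts*, *sox10* and *csf1ra*, chosen as a list by name, each matched to 1 Ensembl identifier among the 28290 gene models of the count table. RNA came from wild-type (WT) whole zebrafish (*Danio rerio*) embryos, in 2 untreated control libraries and 2 libraries of embryos given SYP-3343 at 8 µg/L between 3 and 24 hours post-fertilization (hpf). No transgene, mutant allele or further agent is named for either group, and 40 embryos are mentioned without saying if they make up a library or a group. The libraries are called biological replicates with no clutch or tank named, so a p-value below speaks for the spread between these samples alone, which may be partly technical.

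All pigment cells of the trunk arise from the neural crest, whose pigment and glial precursors need the transcription factor Sox10. Iridophores reflect light from stacked crystals of purines, mainly guanine, so they need the pathway that builds purine rings and the phosphorylase that frees guanine from its sugar. Xanthophores hold yellow pteridines, made from GTP and hence from the same purine supply, and carotenoids. Marker genes of both classes come on in embryos before their pigment can be seen.

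Whole embryos mix many tissues, and in such bulk samples fewer cells of a type and less RNA per cell cannot be told apart. Several of the 10 genes are also active outside pigment cells: purine enzymes in all dividing cells, *sox10* in glia and the ear, *csf1ra* in macrophages. Library totals ran from 46165614 to 59054470 counts, and the lowest count of any of the 10 genes in any library was 286, for *ltk*. On the log2 scale r across genes was 0.995 for the pair of libraries in either group and 0.978 to 0.979 for pairs across groups. All 12 gene identifiers of a list of whole embryo markers (muscle, heart, blood, epidermis, neurons, yolk layer and others) had counts in every library. Of these 12, 6 were called higher in SYP-3343 embryos and 0 lower by the test given below (3 and 4 with library sizes alone), led by *ctslb* (log2 fold change 2.15 ± 0.20) and *krt4* (0.94 ± 0.17). The other 6 did not pass. The summed level of the 12 was 14280 and 14460 CPM in controls and 21550 and 24780 CPM after exposure. Most of it came from *krt4* and *actc1b*, so it does not describe all of these tissues. *krt4* was at 4937 and 4850 CPM in controls and 8961 and 9830 CPM after exposure. *actc1b* was at 6460 and 6734 CPM in controls and 9111 and 11350 CPM after exposure. The part of this sum in the results below was not tested.

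Of the 10 pigment genes, 4 fell in SYP-3343 embryos (*pnp4a*, *ltk*, *gch2* and *xdh*), 3 rose (*paics*, *atic* and *gart*) and 3 did not pass the test (*pts*, *sox10* and *csf1ra*). The falls were those of the iridophore genes *pnp4a* and *ltk* and of the pteridine enzymes *gch2* and *xdh*, and the rises were those of the enzymes that build the purine ring. Rises and falls are changes for which edgeR's quasi-likelihood test, adjusted by Benjamini-Hochberg over the 22647 genes tested, gave an adjusted p under 0.05. Across all genes the median change on the log2 scale was -0.01 with the scaling used here (TMM factors) and -0.35 when libraries were scaled by their size alone, so small changes depend on the scaling. Over all of those genes 31.9% passed, 16.6% as higher and 15.3% as lower, so changes were common in these embryos at large. That is 3770 genes higher and 3455 lower, against 3042 and 4462 with upper-quartile factors and 1405 and 9384 with library sizes alone. Counts of any list with library sizes alone are to be read beside these 1405 and 9384 of 22647 genes. The 10 genes had a median log2 fold change of 0.12, which became -0.21 with library sizes alone. Levels below are CPM, a gene's counts relative to the library total after scaling by edgeR's TMM factors, means are given ± SD with n = 2 per group, and log2 fold changes are SYP-3343 minus control ± SE. Levels of different genes are not compared with each other, since no transcript lengths were used.

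**Figure D1:**
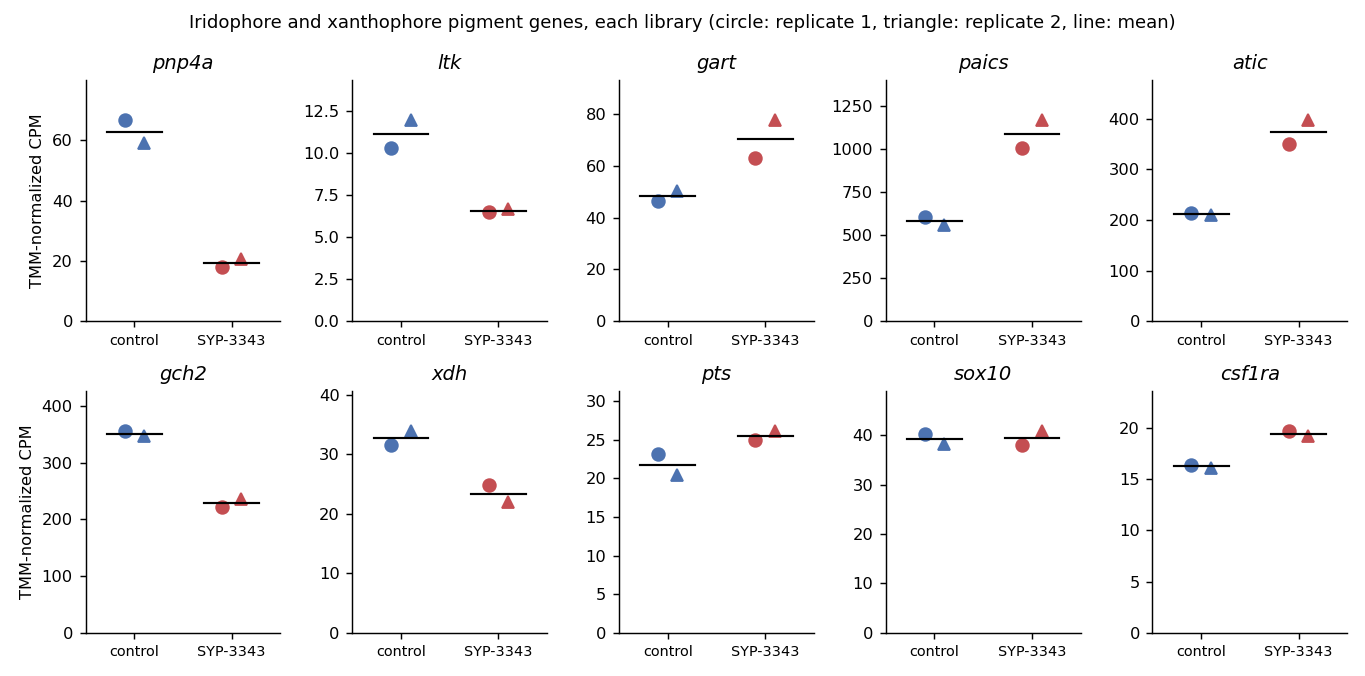
TMM-normalized CPM (vertical axes, linear from 0) of each pigment gene in the 2 control and 2 SYP-3343 libraries; circles are replicate 1, triangles replicate 2, lines the group means. Both SYP-3343 libraries lie below both controls for *pnp4a*, *ltk*, *gch2* and *xdh* and above both for *gart*, *paics*, *atic*, *pts* and *csf1ra*, while the groups of *sox10* overlap.

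*pnp4a* had the largest fall of the 10 genes, and the other iridophore gene, *ltk*, fell too. *pnp4a* (ENSDARG00000057575) encodes a purine nucleoside phosphorylase, an enzyme of guanine supply that serves as an early iridophore marker. Its level was 66.7 and 59.0 CPM in control replicates 1 and 2 and 18.1 and 20.7 CPM in SYP-3343 replicates 1 and 2. Every exposed library was thus far below every control. The mean went from 62.8 ± 5.45 to 19.4 ± 1.80 CPM, a 3.24-fold fall (log2 fold change -1.70 ± 0.11, adjusted p = 7.35e-11). Of all genes tested, 1.65% had a lower log2 fold change than *pnp4a*.

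*ltk* (ENSDARG00000042861) encodes the receptor tyrosine kinase that iridophores need to be specified and to survive, and mutants without it lack them. It stood at 10.3 and 11.9 CPM in the controls and at 6.49 and 6.66 CPM in the SYP-3343 libraries. The groups did not overlap, and the exposed libraries were close to each other while the controls were further apart. The log2 fold change was -0.76 ± 0.15 (adjusted p = 0.000354), with a 95% interval from -1.07 to -0.46.

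Of 9 other genes listed here as iridophore markers, 0 rose, 6 fell and 3 did not pass. Whether each is limited to iridophores in these embryos was not tested. The median log2 fold change of the list was -0.68, against -0.01 for all genes tested. With library sizes alone 0 rose and 7 fell, and these medians were -1.01 and -0.35. *defbl1*, a defensin-like gene of iridophores, was at 48.0 and 36.2 CPM in controls and 7.44 and 8.06 CPM in SYP-3343 libraries (-2.44 ± 0.14, adjusted p = 1.56e-11). *lypc*, a Ly6-family gene of pigment cells, was at 14.9 and 11.7 CPM in controls and at 1.66 and 2.28 CPM after exposure (-2.75 ± 0.20, adjusted p = 7.08e-10). *gpnmb* encodes a transmembrane glycoprotein that in mammals is also made by melanocytes and macrophages, and it fell from 69.1 and 57.1 CPM to 17.2 and 18.6 CPM (-1.82 ± 0.11, adjusted p = 4.92e-11). In these 3 genes the exposed libraries were a small share of the control levels in each replicate. *tfec*, a transcription factor gene of the pigment cell lineage needed for iridophores, fell by less (-0.75 ± 0.18, adjusted p = 0.00314), and its call ended without SYP-3343 replicate 2 (adjusted p = 0.056). Without that library 3 of the 9 genes passed as lower. Genes of the same list that did not pass were *slc2a15b* (0.16 ± 0.11), *mpv17* (0.11 ± 0.16) and *TJP1* (-0.06 ± 0.090). With library sizes alone *slc2a15b* (-0.17) and *mpv17* (-0.22) turned, and *TJP1* was called lower (-0.39, adjusted p = 0.00154). The paralog of *slc2a15b*, *slc2a15a*, is on the list of xanthophore genes below.

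The 3 genes of the list that build the purine ring rose. *paics* (ENSDARG00000033539) encodes a bifunctional enzyme of the middle of the pathway, and zebrafish mutants in *paics* or *gart* lack pigment of both iridophores and xanthophores. It was at 604 and 556.9 CPM in controls and at 1004 and 1167 CPM in SYP-3343 libraries. Both exposed libraries lay well above the controls, SYP-3343 replicate 2 highest. The log2 fold change was 0.90 ± 0.11 (adjusted p = 3.15e-06), a 1.87-fold rise.

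*atic* (ENSDARG00000016706), whose enzyme performs the last steps to IMP, was at 215 and 210.2 CPM in controls and at 350.5 and 397.5 CPM after exposure. The controls were nearly equal, and the exposed libraries were clear of them (0.82 ± 0.098, adjusted p = 1.51e-06). *gart* (ENSDARG00000101089) encodes a trifunctional enzyme of earlier steps. Its level was 46.3 and 50.1 CPM in controls and 62.9 and 77.5 CPM in SYP-3343 libraries, the exposed libraries differing more from each other than the controls did. Its rise had the lowest estimate of the 3 (0.54 ± 0.10, adjusted p = 0.000337), and its call ended when libraries were scaled by their size alone (0.20, adjusted p = 0.121).

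Of 10 other purine synthesis genes tested, 4 rose, 2 fell and 4 did not pass, and the median log2 fold change was 0.08 (-0.26 with library sizes alone). Genes of the shared route to IMP rose, namely *pfas* (0.66 ± 0.094, adjusted p = 1.39e-05), *ppat* (0.60 ± 0.092, adjusted p = 3.58e-05) and *adsl* (0.50 ± 0.092, adjusted p = 0.000248), as did *prps1b* (0.31 ± 0.10, adjusted p = 0.0248), which makes the sugar phosphate they start from. *ppat* encodes the enzyme of the committed step, *pfas* that of a later amidation, and *adsl* a lyase used on the way to IMP and again on the way to AMP. *adsl* did not pass with library sizes alone (0.16, adjusted p = 0.156), and neither did *prps1b* (-0.02, adjusted p = 0.888), whose direction turned there. In the branch from IMP to GMP, *IMPDH1* copy ENSDARG00000029524, an IMP dehydrogenase, fell (-0.51 ± 0.090, adjusted p = 0.000184), *gmps*, the GMP synthase gene, fell too (-0.34 ± 0.091, adjusted p = 0.00698), and neither *IMPDH1* copy ENSDARG00000042336 (-0.13 ± 0.16, adjusted p = 0.578) nor *impdh2* (-0.0037 ± 0.095) passed. The branch to AMP gave *adss1* (0.16 ± 0.091, -0.18 with library sizes alone) and *adss2* (-0.12 ± 0.11), neither of which passed. With library sizes alone 2 of the 10 rose and 5 fell, and 1 fell without SYP-3343 replicate 1. *prps1b* and *gmps* were named after their values were seen.

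Reads of *paics* and *ppat* may not be fully separable. The genes are neighbours with overlapping spans in RefSeq's table of assembly GRCz12tu, and the counting's strand setting was not given in the sources used here. *pnp4a* likewise overlaps *sox12*, a gene at 129.9 and 140.9 CPM in controls and 146.5 and 144.3 CPM in SYP-3343 libraries, which did not pass (0.10 ± 0.090) but was called lower with library sizes alone (-0.23, adjusted p = 0.0495). Of the 10 genes, 4 overlap a protein-coding gene in RefSeq's annotation (also *atic* with *fn1b* and *xdh* with *LOC137488123*), and *gart*, *gch2*, *pts* and *csf1ra* overlap none. Levels of *fn1b* and *LOC137488123* were not examined, so their part in the values of *atic* and *xdh* was not tested. *ltk* and *sox10* overlap only a long non-coding RNA gene, and *pnp4a* overlaps such a gene beside *sox12*.

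Folate enzymes supply the one-carbon units that *gart* and *atic* products use. Of 13 genes of this list 7 rose, 6 fell and 0 did not pass, with a median log2 fold change of 0.28 (-0.05 with library sizes alone). *aldh1l2* (1.56 ± 0.095) and *shmt2* (0.75 ± 0.090) rose, while *MTHFD1* copy ENSDARG00000018266 (-0.97 ± 0.10), a trifunctional cytosolic enzyme that makes formyl folate, fell. The other *MTHFD1* copy, ENSDARG00000040492, fell too (-0.24 ± 0.089, adjusted p = 0.0443). In pyrimidine synthesis 3 of 8 genes rose, 1 fell and 4 did not pass, led by *cad* (1.45 ± 0.11, adjusted p = 2.18e-09), which encodes the multienzyme of the opening steps. The pyrimidine fall, that of *umps* (-0.32 ± 0.11), ended with DESeq2 (adjusted p = 0.0568) and without control replicate 2, SYP-3343 replicate 1 or SYP-3343 replicate 2 (0.149, 0.115 and 0.0889). With library sizes alone 1 of the 8 pyrimidine genes rose and 4 fell. Of 16 genes of purine salvage and breakdown 5 rose, 3 fell and 8 did not pass, with a median log2 fold change of -0.16. Without control replicate 2, 3 of these 16 rose, and with library sizes alone 1 rose and 8 fell. The AMP deaminase *AMPD2* copy ENSDARG00000104491 (1.40 ± 0.11) rose, while the other copy, ENSDARG00000029952, did not pass (-0.19 ± 0.13). The falls were those of urate oxidase *uox* (-1.29 ± 0.23), *ADA2* copy ENSDARG00000015623 (-2.01 ± 0.36) and *AMPD3* copy ENSDARG00000005800 (-0.91 ± 0.20). The other *ADA2* copy, ENSDARG00000051746, rose (0.57 ± 0.12), though not with library sizes alone (adjusted p = 0.153). The other *AMPD3* copy, ENSDARG00000032469, did not pass (-0.15 ± 0.13). Of 18 cell division genes 5 rose, 4 fell and 9 did not pass, and their summed level was 1959 and 2261 CPM in controls and 2004 and 2365 CPM after exposure, so the groups overlapped. With library sizes alone 0 of these 18 genes rose and 9 fell, beside 1405 higher and 9384 lower of all 22647 genes tested. Fewer of the 18 rose without SYP-3343 replicate 2.

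**Figure D2:**
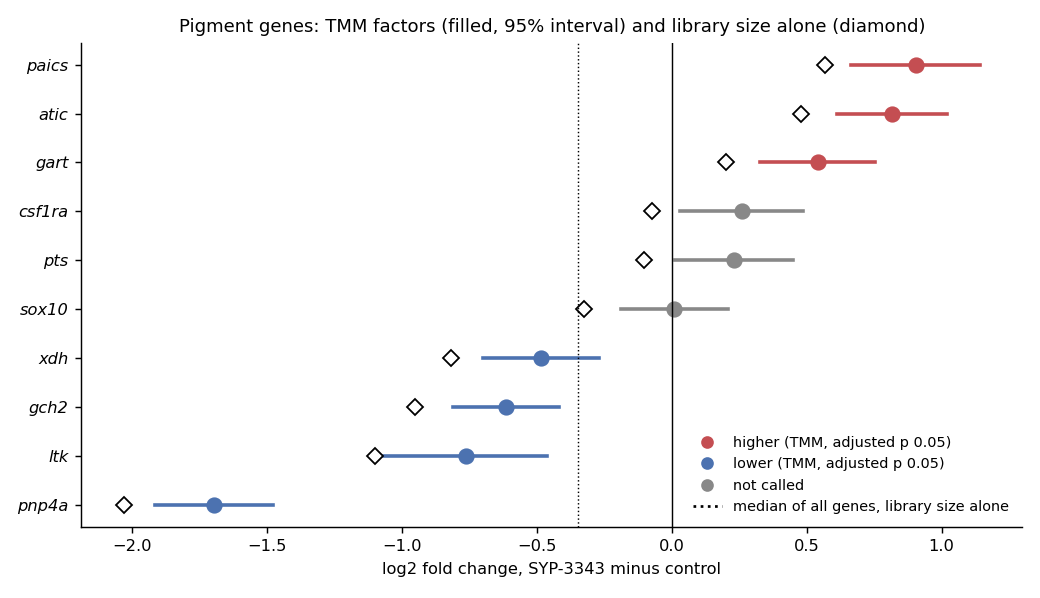
Log2 fold change of each pigment gene, SYP-3343 minus control (horizontal axis), with TMM factors (filled points, bars: 95% interval, colour: call) and with library size alone (diamonds); the dotted line is the median of all genes with library size alone. The diamonds lie to the left of the points for all 10 genes, and those of *pts*, *sox10* and *csf1ra* cross 0.

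Pteridine enzymes did not move as a block. *gch2* (ENSDARG00000099101) encodes the GTP cyclohydrolase that opens pteridine synthesis in xanthophores and marks them early. It was at 355 and 346.8 CPM in controls and at 222 and 236.3 CPM in SYP-3343 libraries. Replicates were close within each group, and the groups were well apart (log2 fold change -0.62 ± 0.094, adjusted p = 3.32e-05), a 1.53-fold fall. *xdh* (ENSDARG00000055240) encodes xanthine dehydrogenase, which oxidizes purines and also yellow pteridines. It stood at 31.5 and 33.8 CPM in controls and at 24.8 and 22.0 CPM after exposure, without overlap (-0.49 ± 0.10, adjusted p = 0.00101).

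*pts* (ENSDARG00000045269) encodes the synthase that acts after *gch2* in the pathway. Its level was 23.2 and 20.4 CPM in controls and 25.0 and 26.1 CPM in SYP-3343 libraries. The exposed libraries were slightly higher, yet the gene did not pass (0.23 ± 0.11, adjusted p = 0.103), with a 95% interval from 0.01 to 0.45. Without control replicate 1 it passed as higher (0.32, adjusted p = 0.039), and with library sizes alone its sign turned (-0.10, adjusted p = 0.481).

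Of 9 further pteridine genes tested, 4 rose, 0 fell and 5 did not pass, and the median log2 fold change was 0.24 (-0.10 with library sizes alone). Scaling by library size alone gave 2 higher and 3 lower, and upper-quartile factors gave 1 lower. The rises were in genes that recycle the cofactor tetrahydrobiopterin, the dihydropteridine reductases *QDPR* copy ENSDARG00000040190 (0.91 ± 0.11, adjusted p = 1.19e-06) and *QDPR* copy ENSDARG00000037378 (0.46 ± 0.16, adjusted p = 0.0327) and the dehydratase *pcbd1* (0.68 ± 0.10, adjusted p = 2.24e-05), and in *gchfr* (0.72 ± 0.24, adjusted p = 0.0266), a regulator of GTP cyclohydrolase. The calls of *gchfr* and of *QDPR* copy ENSDARG00000037378 ended with library sizes alone (adjusted p = 0.203 and 0.558) and with DESeq2 (0.059 and 0.0813). They ended too without control replicate 2 (0.0978 and 0.363) or without SYP-3343 replicate 2 (0.382 and 0.0828), and that of the *QDPR* copy without SYP-3343 replicate 1 (0.0784). The other GTP cyclohydrolase gene, *gch1*, best known from neurons that make monoamines, did not pass (-0.32 ± 0.15, adjusted p = 0.103). *aox5*, an aldehyde oxidase gene of xanthophores, went from 69.0 to 61.7 CPM and did not pass either (-0.16 ± 0.091, adjusted p = 0.19). Both *gch1* (-0.66, adjusted p = 0.00282) and *aox5* (-0.49, adjusted p = 0.000814) were called lower with library sizes alone.

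A further list of xanthophore genes was mixed, and 2 of 11 rose, 3 fell and 6 did not pass. Whether each is limited to xanthophores in these embryos was not tested. The median log2 fold change of the list was 0.15 (-0.18 with library sizes alone). *AKR1B1* copy ENSDARG00000006215 (-0.50 ± 0.094) and the sugar transporter genes *slc2a15a* (-0.41 ± 0.11) and *slc2a11b* (-0.35 ± 0.10) fell, and the solute carrier *slc22a7a* (0.50 ± 0.090) and the carotenoid receptor *scarb1* (0.59 ± 0.12) rose, neither of the rises with library sizes alone. Both copies of *PAX7*, a transcription factor of xanthophore precursors and of muscle and brain, did not pass (0.31 ± 0.12 and 0.20 ± 0.11), and both changed sign with library sizes alone (-0.02 and -0.14). With library sizes alone 0 of the 11 rose and 5 fell, and 1 fell without SYP-3343 replicate 2. *slc2a11b* was named after its values were seen.

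The transcription factor gene *sox10* and the receptor gene *csf1ra* did not pass the test. *sox10* (ENSDARG00000077467) was at 40.1 and 38.1 CPM in controls and at 38.0 and 40.8 CPM in SYP-3343 libraries, and the groups overlapped. Its log2 fold change was 0.01 ± 0.095 (adjusted p = 0.952), with a 95% interval from -0.19 to 0.21. With library sizes alone *sox10* was called lower (-0.32, adjusted p = 0.0144), close to the median of -0.35 that all genes had on that scale.

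*csf1ra* (ENSDARG00000102986) encodes the receptor tyrosine kinase that xanthophores need to leave the neural crest and to survive, and that macrophages use too. It was at 16.4 and 16.1 CPM in controls and at 19.7 and 19.2 CPM in SYP-3343 libraries. Replicates were nearly equal, and both exposed libraries were higher. The change did not pass (0.26 ± 0.11, unadjusted p = 0.0273, adjusted p = 0.0761), and its sign turned with library sizes alone (-0.07, adjusted p = 0.638). Without overlap between the groups were 9 of the 10 genes, beside 66% of all genes tested.

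Of the ligands and other receptors of pigment cells, 2 of 13 tested genes rose, 1 fell and 10 did not pass. The falls were 3 with library sizes alone and 2 with upper-quartile factors, and *kitlga*, a gene for a ligand of the Kit receptor of melanophores (-0.32 ± 0.13, adjusted p = 0.0557), was called lower under both (adjusted p = 0.00111 and 0.0201). Both rises were in genes for ligands of the *csf1ra* receptor family. *csf1a* was at 7.80 and 7.04 CPM in controls and at 16.4 and 16.8 CPM after exposure (1.17 ± 0.13, adjusted p = 4.37e-07). *il34* was at 2.33 and 2.67 CPM in controls and at 5.21 and 5.12 CPM after exposure (1.04 ± 0.20, adjusted p = 0.000466). The third ligand gene, *csf1b*, did not pass (0.23 ± 0.17, -0.11 with library sizes alone). The fall was that of *EDNRB* copy ENSDARG00000089334, an endothelin receptor gene (-0.90 ± 0.18, adjusted p = 0.000614). The ligand genes of Ltk were scarce: *alkal1*, *ALKAL2* and *alkal2b* had means between 0.273 and 2.35 CPM in either group, and none passed, while the sign of *alkal1* (0.32 ± 0.63) turned with library sizes alone (-0.01). The names *csf1b*, *alkal1*, *ALKAL2* and *alkal2b* were chosen after their values were seen.

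Ratios between these genes within a library do not depend on how libraries are scaled, and the pairs below were chosen after the values were seen and carry no test. Since transcripts differ in length, a ratio says nothing of which gene is the more abundant, and only its change between libraries is described. There were 11.0 and 10.6 *pnp4a* counts per 100 *paics* counts in controls and 1.80 and 1.77 in SYP-3343 libraries, a 6.05-fold lower ratio. Per 100 *sox10* counts, *pnp4a* went from 166.1 and 154.7 to 47.6 and 50.7 counts. Per 100 *sox10* counts, *ltk* went from 25.6 and 31.3 to 17.1 and 16.3 counts. So both iridophore genes were lower against the crest regulator in each exposed library than in either control.

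In the pteridine pathway there were 1535 and 1695 *gch2* counts per 100 *pts* counts in controls and 888.9 and 905.1 after exposure. Against *csf1ra*, *gch2* went from 2168 and 2155 to 1130 and 1231 counts per 100, and *xdh* from 192.5 and 210.2 to 126 and 114.4. Both enzymes were thus lower in the exposed libraries against *csf1ra*, a receptor gene of xanthophores and also of macrophages. Within the purine pathway *paics* kept nearly the same ratio to *atic*, 281.2 and 265 counts per 100 in controls and 286.5 and 293.7 after exposure. That of *gart* to *atic* went from 21.6 and 23.8 to 17.9 and 19.5 counts per 100, lower in both exposed libraries than in either control.

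**Figure D3:**
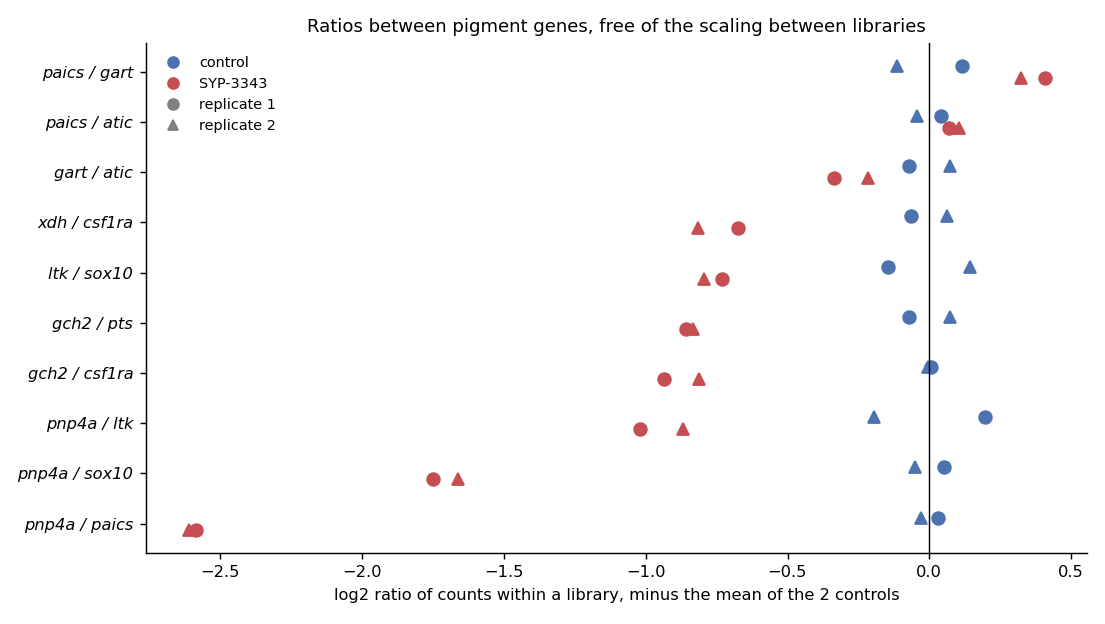
Log2 ratio of the counts of 2 pigment genes within each library, minus the mean of the 2 controls (horizontal axis), for 10 pairs; blue is control and red SYP-3343, circles are replicate 1 and triangles replicate 2. The ratio of *pnp4a* to *paics* is lowest, 6.05-fold below the controls, and that of *paics* to *atic* stays near 0.

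Markers of other cells that share these genes were measured beside them. Neural crest regulators gave 2 of 17 higher, 4 lower and 11 not passing, with a summed level of 695.6 and 694.3 CPM in controls and 643.4 and 677.1 CPM after exposure, and *crestin* had 0 counts in every library. The rises were those of *SOX9* copy ENSDARG00000043923 (0.70 ± 0.10, adjusted p = 1.95e-05) and *msx1b* (0.39 ± 0.10, adjusted p = 0.00507), the second not called with library sizes alone (adjusted p = 0.696). The other *SOX9* copy, ENSDARG00000003293, did not pass (0.09 ± 0.091, adjusted p = 0.512). With library sizes alone that copy was called lower (-0.25, adjusted p = 0.0499). The falls of the list included *tfap2b* (-0.50 ± 0.090) and *tfap2a* (-0.36 ± 0.091), which held much of the summed level. In controls *tfap2a* was at 220.9 and 220.4 CPM and *tfap2b* at 98.1 and 97.5 CPM. After exposure they were at 167.7 and 176.2 CPM and at 66.7 and 71.7 CPM. The median log2 fold change of the crest list was 0.09 (-0.25 with library sizes alone). Of the same list 4 rose without control replicate 2, and 2 fell without SYP-3343 replicate 2. Melanophore genes, which the retinal pigment epithelium also uses, gave 8 of 16 higher, 1 lower and 7 not passing, and their summed level was 680 and 654 CPM in controls and 967.9 and 1255 CPM after exposure. *oca2* (1.88 ± 0.13) and *slc45a2* (1.01 ± 0.12), both of melanosomes, led with *TYRP1* copy ENSDARG00000029204 (1.30 ± 0.14) and the exchanger *slc24a5* (1.23 ± 0.16). All 8 were also called higher with library sizes alone, which called 3 genes lower, and the call of this *TYRP1* copy ended with robust estimation of the dispersion (adjusted p = 0.0712). The part of these cells in the changes of the 10 genes was not tested.

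Macrophage genes gave 4 of 17 higher, 2 lower and 11 not passing, with a summed level of 93.7 and 79.9 CPM in controls and 84.0 and 81.7 CPM after exposure, and none of them was at 0 in all 4 libraries. Without control replicate 2, 1 of these genes rose, 2 rose when either SYP-3343 library was left out, while 1 fell without control replicate 1 or SYP-3343 replicate 1. Both falls were in *MFAP4* copies, ENSDARG00000090557 (-1.35 ± 0.18) and ENSDARG00000088745 (-0.58 ± 0.20). The rises were those of *MFAP4* copy ENSDARG00000116066 (5.29 ± 0.47), *coro1a* (0.47 ± 0.13), *lcp1* (0.39 ± 0.11) and *ptprc* (0.56 ± 0.21). Of these rises only that of the *MFAP4* copy was also called with library sizes alone. The summed level thus mixes opposite changes. The macrophage list bears on *csf1ra* and *gpnmb*, and its part in their values was not tested. Glia genes, which bear on *sox10*, gave 3 of 11 higher, 3 lower and 5 not passing, with a summed level of 1282 and 1160 CPM in controls and 972.5 and 1046 CPM after exposure. *mbpa* (-4.47 ± 0.44) fell there, and the part of these genes in the value of *sox10* was not tested. With library sizes alone, 1 crest gene was higher and 6 were lower, 1 macrophage gene was higher and 5 were lower, and 2 glia genes were higher and 4 were lower.

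**Figure D4:**
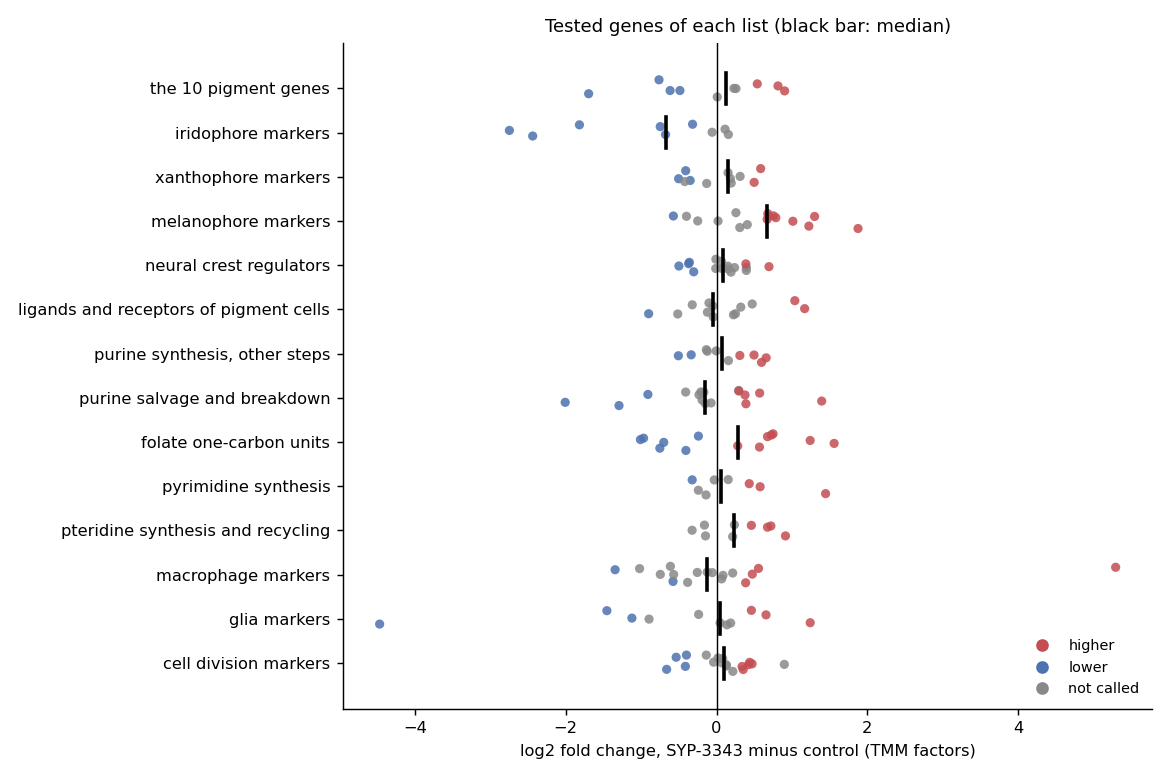
Log2 fold change with TMM factors, SYP-3343 minus control (horizontal axis), of each tested gene of the 10 pigment genes and of 13 further lists (rows); red is higher, blue lower, grey not called, and black bars are medians. The median is -0.68 for iridophore markers, 0.15 for xanthophore markers (-0.18 with library sizes alone) and 0.68 for melanophore markers. Under library sizes alone the medians above 0 of the 10 pigment genes, neural crest, other purine, folate, pyrimidine, pteridine, glia and cell division lists also turn below 0.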

How the data were processed

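Poly-A RNA of whole embryos was measured in 2 control and 2 SYP-3343 libraries. The authors' deposited table holds counts of reads per gene, as whole numbers that were not normalized. The submitters' processing notes name the build GRCz11 and, without role or order, DESeq2 1.14.1, featureCounts 1.6.2, HTSeq, HISAT2 and TopHat2. Libraries were made with a NEBNext Ultra kit, per the labels' protocols.

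All 4 columns entered the fit, in which the 10 pigment genes were tested among 22647 genes kept by filterByExpr (TMM factors 0.860 to 1.14, edgeR quasi-likelihood F test, two-sided, threshold 0.05 after Benjamini-Hochberg adjustment). The SE is the log2 fold change over the root of F. Totals of 46165614 to 59054470 counts put 3 counts, the limit that a count of 0 allows, at 0.0508 to 0.065 CPM, for counting error only. Gene names came from a table of Ensembl identifiers and symbols. Where a symbol had no match, its final paralog letter was dropped and every identifier of that name was used as a copy. Of 192 symbols on 15 lists, 136 matched as written, 42 without the letter and 14 did not match. The rule for named genes took all 10 pigment genes and, from each other list, up to 4 with the smallest adjusted p, and every other gene printed was named after its values were seen. Some genes that the rule takes are not reported here. The 10 genes and the lists were chosen with earlier results of these data known. Sequences were not used here.

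As alternatives the counts were scaled by RLE factors, by upper quartiles or by library size only. The filter was dropped or set to a CPM of 1 or more in no fewer than 2 libraries. DESeq2, limma-voom, robust quasi-dispersion and the replicate number as a block were tried, as were leaving out the 20 most abundant genes or any 1 library. Stricter calls used an adjusted p of 0.01 or a minimum log2 change of 1 in size. The legacy quasi-likelihood fit was added after seeing the data. A group left with a lone library is taken to vary as the other group does. Scripts were tested on simulated data. R 4.3.3, edgeR 4.0.16, limma 3.58.1, DESeq2 1.42.0, pandas 2.3.3, numpy 2.4.6 and matplotlib 3.10.9 were used.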

Additional observations from a re-analysis of the deposited data

How the results depend on the processing

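The calls of *pnp4a*, *ltk*, *paics*, *atic*, *gch2* and *xdh* kept their direction and passed under all 15 alternatives run for each, and *gart* under 14, failing with library sizes alone (0.20). Across these alternatives *pnp4a* ranged from -2.03 to -1.60 and *paics* from 0.57 to 1.01 on the log2 scale. Library size alone gave 1405 genes higher and 9384 lower among all genes tested, against 3770 and 3455, and turned the sign of *pts* (-0.10), *sox10* (-0.32) and *csf1ra* (-0.075). Upper-quartile factors turned that of *sox10* (-0.060), and leaving out each library in turn gave *sox10* values from -0.045 to 0.062. *pts* passed without control replicate 1 (0.32). With a minimum log2 change of 1 in size, 746 genes were higher and 746 lower, with 0 pigment genes higher and 1 (*pnp4a*) lower, and at an adjusted p of 0.01, 2039 genes were lower. The last of these changes follow from stricter limits, and the cause of the others was not tested. The replicate block gave 3763 genes higher and 3485 lower, and 3 and 4 pigment genes. Deviations of same-numbered libraries correlated with r = -0.037 across genes. With 2 libraries per group this rests on 1 contrast in each, so it cannot tell if the replicates were paired. Of 390 counts over the other lists, 41 moved by over 1.5 times. Of the alternatives' values for the genes that the naming rule took from the other lists, 743 stayed on their side of the threshold, 35 lost and 2 gained a call, and none changed sign. Among genes named outside the rule *prps1b*, *adss1*, *mpv17*, *slc2a15b*, both *PAX7* copies, *SOX9* copy ENSDARG00000003293, *alkal1*, *csf1b* and *sox12* turned with library sizes alone. With 2 libraries per group the 95% intervals of *pts* (0.01 to 0.45) and *csf1ra* (0.03 to 0.49) span both hardly any change and one of some size.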
